A study of Rattus norvegicus with 6 samples.

Results

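Skeletal muscle genes were followed in rat facial nerve as a measure of the muscle that lies around the nerve. The 4 genes were Acta1, Ckm, Mb and Pvalb, chosen by gene ID (ENSRNOG00000017786, ENSRNOG00000016837, ENSRNOG00000004583 and ENSRNOG00000006471) out of 30562 IDs in the count table. The names were given with this choice of IDs. The deposited files hold IDs alone, and no table used here links Ensembl IDs to symbols, so the pairing of names and IDs was not checked. RNA was sequenced from facial nerve of wild type rats on day 14 after injury, with 3 libraries from the facial nerve injury model (FNI) and 3 from injured nerve that received C-Gel-light, a treatment that the series title links to an oxygen-releasing hydrogel with the green alga Chlorella. The strain, sex and age of the animals were not given in the sources used here, nor whether each library is its own animal. The p-values therefore measure the spread between libraries, technical spread included. Batch labels differed for every library (1 to 3 with C-Gel-light, 4 to 6 in FNI), so a batch, if the label marks one, cannot be told apart from the single library and could not enter a fit.

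The facial nerve runs between and into the muscles of facial expression, and a piece of nerve cut out for RNA can carry muscle fibres with it. Muscle fibres hold the products of the 4 genes in large amounts. Acta1 encodes the actin of the thin filament, on which myosin pulls, and Ckm the muscle creatine kinase, which restores ATP from phosphocreatine. Mb encodes myoglobin, the oxygen store of oxidative fibres. Pvalb encodes parvalbumin, a calcium buffer of fast fibres that is also found in some neurons. In bulk tissue, fewer muscle fibres and less of these RNAs per fibre cannot be told apart. Markers of Schwann cells, other muscle genes and the genes of denervated or regenerating fibres were not analysed here, because their IDs could not be matched to names.

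Libraries held 22957382 to 28997855 counts in total. FNI replicate 3 had the fewest, and it had the highest TMM factor (1.139, against 0.866 to 1.083 in the others). Over all tested genes this library was not set apart by an excess of its own: 34 of 15581 genes (0.218%) were at least 2-fold higher there than in each of the other 5 libraries. The same number was 8 for FNI replicate 2, 134 for FNI replicate 1 and 41 to 94 for the C-Gel-light libraries. In the 4 muscle genes FNI replicate 3 did stand apart, so each comparison of groups is given with and without it.

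The upstream sequences of the muscle genes are shown because the 4 genes were all highest in the same library, FNI replicate 3. Over the other 5 libraries the log2 CPM of pairs of these genes had a Pearson r of only -0.34 to 0.84. RefSeq held a promoter window for 4 of the 4 genes, and the 250 bases before the annotated start of 1 transcript are printed for the 3 with a motif. Capitals mark 3 motifs searched on both strands. One is the CArG box, known to be bound by serum response factor. Another, TATAAA, is a form of the TATA element near many starts. The last, CAGCTG, is an E-box of the kind bound by MyoD and related factors. Sequences run 5′ to 3′ on the strand of the gene, and the coordinates are of the RefSeq build GRCr8, while the submitters' notes name mRatBN7.2 for the counts.
Acta1 (GRCr8, chr19:68784195-68784444, minus strand): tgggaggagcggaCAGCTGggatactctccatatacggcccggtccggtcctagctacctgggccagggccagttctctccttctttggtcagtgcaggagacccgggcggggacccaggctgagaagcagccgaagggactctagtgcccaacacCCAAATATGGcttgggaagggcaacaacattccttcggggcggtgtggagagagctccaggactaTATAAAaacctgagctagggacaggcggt
Ckm (GRCr8, chr1:88189211-88189460, plus strand): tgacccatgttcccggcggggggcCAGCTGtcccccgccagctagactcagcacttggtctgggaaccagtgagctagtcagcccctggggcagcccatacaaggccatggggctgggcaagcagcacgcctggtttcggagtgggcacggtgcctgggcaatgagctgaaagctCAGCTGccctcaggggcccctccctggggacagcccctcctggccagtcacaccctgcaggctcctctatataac
Mb (GRCr8, chr7:110647743-110647992, minus strand): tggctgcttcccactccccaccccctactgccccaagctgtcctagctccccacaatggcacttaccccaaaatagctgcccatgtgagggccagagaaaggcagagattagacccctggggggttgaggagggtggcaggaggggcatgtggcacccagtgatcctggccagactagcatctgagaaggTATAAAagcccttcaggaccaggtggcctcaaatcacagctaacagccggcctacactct
The Acta1 window held a CArG box, CCAAATATGG, that began 94 bases before the start, with TATAAA at 29 bases and CAGCTG at 237 bases. Ckm had CAGCTG at 226 and at 75 bases, and Mb had TATAAA at 60 bases. These letters did not occur in the Pvalb window. No motif overlapped another. Of 33469 windows of 250 bases in the RefSeq table, 1.5% held a CArG box, 12.9% TATAAA and 12% CAGCTG.

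RNA of the muscle genes was scarce in 5 of the 6 libraries and more abundant in 1. Summed over the 4 genes there were 683 counts in all, of which 556 (81.4%) were in FNI replicate 3. The C-Gel-light libraries had 43, 38 and 36 counts in the order of their replicates. FNI replicates 1 and 2 had 3 and 7 counts. In CPM, which divides the count by the TMM-scaled library size, the sum was 1.71, 1.55 and 1.46 with C-Gel-light, 0.107 and 0.287 in FNI replicates 1 and 2, and 21.3 in FNI replicate 3. The C-Gel-light libraries lay close together, and the FNI libraries lay on both sides of them. The mean was 1.57 ± 0.127 CPM with C-Gel-light and 7.22 ± 12.2 CPM in FNI (SD, n = 3 per group). Even in FNI replicate 3 the 4 genes made up 0.00242% of all counts. How high they stand in facial muscle itself was not measured, so these values cannot be turned into a share of muscle tissue.

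**Figure D1:**
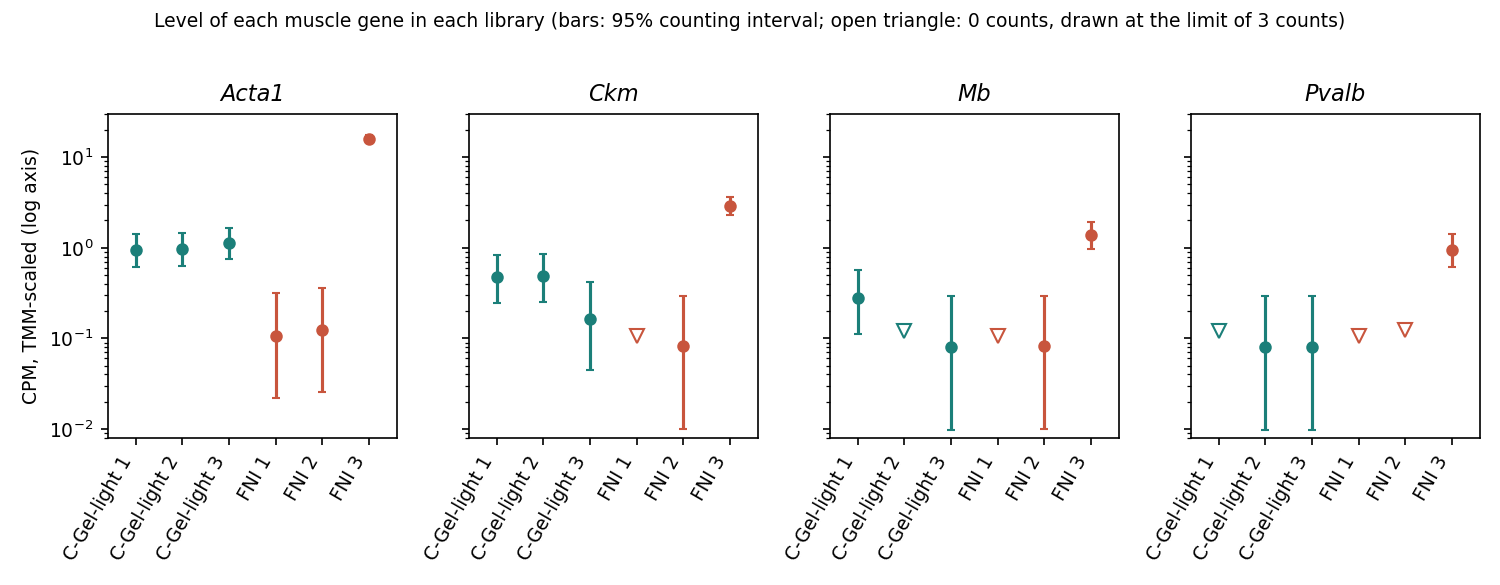
CPM of Acta1, Ckm, Mb and Pvalb in each of the 6 libraries, on a log axis, with 95% counting intervals as bars and open triangles for libraries with 0 counts, drawn at the limit of 3 counts. FNI replicate 3 is the highest library in all 4 panels, and for Acta1 the C-Gel-light libraries lie between it and the other FNI libraries.

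Acta1, the filament gene, had the most counts of the 4. With C-Gel-light its counts were 24, 24 and 28, or 0.956, 0.976 and 1.14 CPM. In FNI replicates 1 to 3 it had 3, 3 and 419 counts, or 0.107, 0.123 and 16.0 CPM. The C-Gel-light libraries were nearly equal (SD 0.0998 CPM, 9.75% of the mean), a spread smaller than the 95% counting intervals of the single libraries, which ran from 0.612 to 1.65 CPM. The FNI libraries split into a pair with hardly any Acta1 and 1 library that held 98.6% of the group's counts, for an SD of 9.19 around a mean of 5.42 CPM. FNI replicate 3 was 140-fold higher than FNI replicates 1 and 2 pooled (95% counting interval 63.7 to 383) and 15.7-fold higher than the pooled C-Gel-light libraries (12.2 to 20.3). These intervals, as all others given here for pooled counts, cover counting error only and compare libraries, not conditions.

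Ckm, the creatine kinase gene, was at a lower level, with FNI replicate 3 highest, the C-Gel-light libraries next and FNI replicates 1 and 2 lowest. Among the C-Gel-light libraries, replicate 3 was the lowest for Ckm and the highest for Acta1. Its counts were 12, 12 and 4 with C-Gel-light and 0, 2 and 76 in FNI. In CPM this was 0.478, 0.488 and 0.163 against 0, 0.0819 and 2.91, where the 0 of FNI replicate 1 allows up to 0.107 CPM. The 95% counting interval of FNI replicate 2 (0.00992 to 0.296 CPM) overlapped that of each C-Gel-light library, such as 0.0443 to 0.416 CPM in replicate 3. Overlap of intervals does not show equal levels, and the order of FNI replicate 2 and the single C-Gel-light libraries was not tested. FNI replicate 3 exceeded FNI replicates 1 and 2 pooled, which held 2 counts, by 76.1 times (20.4 to 640 by counting error), and the pooled C-Gel-light libraries by 7.71 times (4.94 to 12.4).

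Mb and Pvalb were close to the limit of detection except in FNI replicate 3. Mb, the myoglobin gene, had 7, 0 and 2 counts with C-Gel-light and 0, 2 and 36 in FNI, or 0.279, 0 and 0.0813 CPM against 0, 0.0819 and 1.38 CPM. Pvalb, the calcium buffer, had 0, 2 and 2 counts with C-Gel-light and 0, 0 and 25 in FNI, or 0, 0.0813 and 0.0813 CPM against 0, 0 and 0.956 CPM. A count of 0 allows up to 0.107 to 0.123 CPM in these libraries, so none of the libraries at 0 to 2 counts could be ordered among themselves. FNI replicate 3 lay above the pooled C-Gel-light libraries by 11.4-fold for Mb (95% counting interval 5.37 to 26.8) and 17.8-fold for Pvalb (6.13 to 70.2). Against FNI replicates 1 and 2 pooled the ratio for Mb, with 2 counts there, was 36.1 (9.29 to 309), and Pvalb, with 0 counts there, was at least 16.7-fold higher when its 25 counts are set against a limit of 3 counts over the pair. With the counting error of those 25 counts included, the lower 95% bound was 12.6.

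Per length, Acta1 was the highest of the 4 genes in 6 of 6 libraries, though on 3 counts each in FNI replicates 1 and 2. The deposited FPKM, which divides the count by gene length, was 0.57, 0.606 and 0.769 for Acta1 with C-Gel-light and 0.0799, 0.0891 and 12.6 in FNI. In FNI replicate 3 the order of levels was Acta1, then Ckm (2.29 FPKM), Pvalb (0.859 FPKM) and Mb (0.26 FPKM). The place of Mb rests on its deposited length of 6027 bases, against 1453 for Acta1, 1444 for Ckm and 1267 for Pvalb, since by counts alone Mb lay above Pvalb there. In FNI replicate 3 the Acta1 level was above that of 72.4% of the genes with a count, and in FNI replicates 1 and 2 above that of 8.75% and 9.16%. The C-Gel-light libraries lay between, at 27.3%, 27.9% and 28.9%. For Ckm the share was 38.9% in FNI replicate 3 and 11.2% to 21.1% with C-Gel-light.

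Acta1 was the largest part of the summed counts of the 4 genes in FNI replicate 3 and in each C-Gel-light library. It made up 75.4% of the summed counts in FNI replicate 3 (exact binomial 95% interval 71.6 to 78.9). Of the C-Gel-light libraries it made up 65% of the 117 summed counts (55.6 to 73.5). The intervals overlap, which does not show that the shares were equal, and their difference was not tested. The other parts of FNI replicate 3 were 13.7% Ckm, 6.47% Mb and 4.5% Pvalb. The single C-Gel-light libraries had 55.8%, 63.2% and 77.8% Acta1, with intervals that overlap each other, and differences among them were not tested either. Acta1 counts were 2, 2 and 7 times those of Ckm in C-Gel-light replicates 1 to 3 and 5.51 times in FNI replicate 3. With 3 and 7 summed counts, the make-up of FNI replicates 1 and 2 could not be read.

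**Figure D2:**
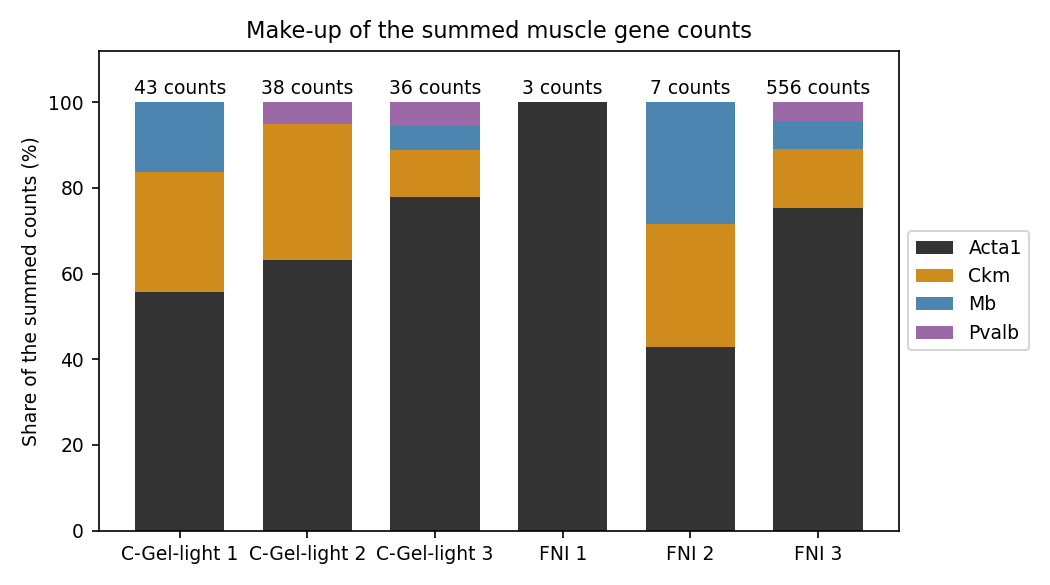
Share of each gene in the summed counts of the 4 muscle genes, in percent, per library, with the summed count above each bar. Acta1 is the largest part in FNI replicate 3 and the C-Gel-light libraries, the bars of FNI replicates 1 and 2 rest on 3 and 7 counts, and the mixture of FNI replicate 3 rests on 556 counts.

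Across the 6 libraries the log2 CPM of the genes went together, with Pearson r of 0.95 for Acta1 and Ckm, 0.92 for Acta1 and Pvalb and 0.75 to 0.84 for the other pairs. These are descriptions over 6 shared libraries. Most of the likeness was the height of FNI replicate 3: without it, over 5 libraries, r was 0.84 for Acta1 and Ckm, 0.69 for Acta1 and Pvalb and -0.34 to 0.43 for the other pairs, in which Mb and Pvalb then had 7 counts at most.

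The height of the muscle genes in FNI replicate 3 was rare among the genes of that library. Acta1 was 13.2-fold higher there than in the highest of the other 5 libraries, on the scale of CPM with a prior count of 2. This was the largest excess of FNI replicate 3 among the 15581 genes tested, and Ckm, at 5.27-fold, was the fifth. Other libraries had excesses of like size in other genes. The highest log2 excess of a tested gene was 4.61 in FNI replicate 1, 3.73 in FNI replicate 3 and 1.35 to 3.42 in the remaining libraries. Pvalb and Mb did not pass the filter on low counts and stood 6.47-fold and 4.07-fold above the highest other library. Over all 30562 IDs, low counts included, the ranks were 3 for Acta1, 10 for Pvalb, 18 for Ckm and 23 for Mb. These ranks were looked up after the counts of FNI replicate 3 had been seen and are a description.

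**Figure D3:**
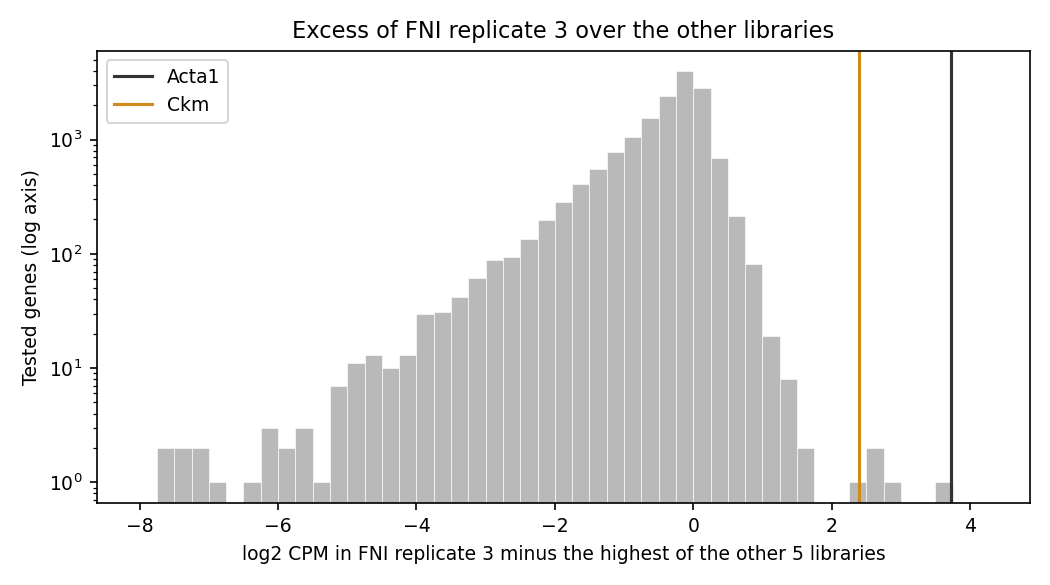
Number of tested genes, on a log axis, by the log2 CPM of FNI replicate 3 minus that of the highest of the other 5 libraries. Most genes lie at or below 0, and the lines for Ckm (2.4) and Acta1 (3.73) lie in the right tail, with Acta1 the outermost of 15581 genes.

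The design asks whether muscle genes differed between treated and untreated nerve. None of the 4 was called. Of the 15581 genes that passed the filter, 14.8% were called at an adjusted p under 0.05 by the quasi-likelihood test of edgeR. Acta1 and Ckm were the 2 muscle genes that passed it, and 0 of the 2 were called. The fitted log2 fold change of C-Gel-light over FNI was -2.40 for Acta1 (adjusted p = 0.35 by edgeR, SE 1.62) and -1.39 for Ckm (adjusted p = 0.55 by edgeR, SE 1.46). Unadjusted, p by edgeR was 0.18 and 0.37. The adjusted p by limma-voom was 0.81 for Acta1 and 0.68 for Ckm, in a fit that called 2264 genes. DESeq2 called 3618 genes, gave Ckm an adjusted p of 0.57 and gave no p for Acta1. The negative edgeR values follow the group means, which FNI replicate 3 carries. The difference of the mean log2 CPM had the other sign, at 0.38 for Acta1 and 0.34 for Ckm, since C-Gel-light was above FNI replicates 1 and 2 on that scale. Neither sign exceeds the spread between FNI libraries. For Mb and Pvalb, which were not fitted, the difference of mean log2 CPM was -0.68 and -0.56, with two-sided exact permutation p of 0.7 and 1, where 3 against 3 libraries cannot go below 0.1.

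Without FNI replicate 3 the sign of the Acta1 change turned round. Leaving out each library was a fixed alternative, but this library stands apart in these same genes, so the values without it are a description and no independent test of the groups. C-Gel-light was then above FNI, at a fitted log2 change of 3.10 (adjusted p = 0.028 by edgeR, SE 0.51) between 3 treated and 2 untreated libraries. Acta1 and Ckm reached the filter's minimum count of 10 only in C-Gel-light libraries there. Both therefore entered that fit only through the group where they were higher. An exact permutation test of 3 against 2 libraries cannot go below p = 0.1. In that fit 5.34% of 15901 genes were called, and 2.22% were called higher. Ckm had a log2 fold change of 3.13 without FNI replicate 3 but was not called (adjusted p = 0.16 by edgeR, SE 1.12). In pooled counts C-Gel-light over FNI replicates 1 and 2 was 8.93-fold for Acta1 (76 against 6 counts, 95% counting interval 3.92 to 25.1), and the ratio for Ckm was 9.87 (28 against 2 counts, 2.49 to 85.5). For Mb the ratio was 3.17 (9 against 2 counts, 0.657 to 30.2), so that a difference was not detectable at this depth. Pvalb, with 4 counts against 0, gave none either. Leaving out any of the other 5 libraries in turn kept the log2 fold change of Acta1 between -2.98 and -2.34 and that of Ckm between -1.98 and -1.03, with no call. The part of muscle carried along in dissection, of the treatment and of the batch labels in these differences was not tested.

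**Figure D4:**
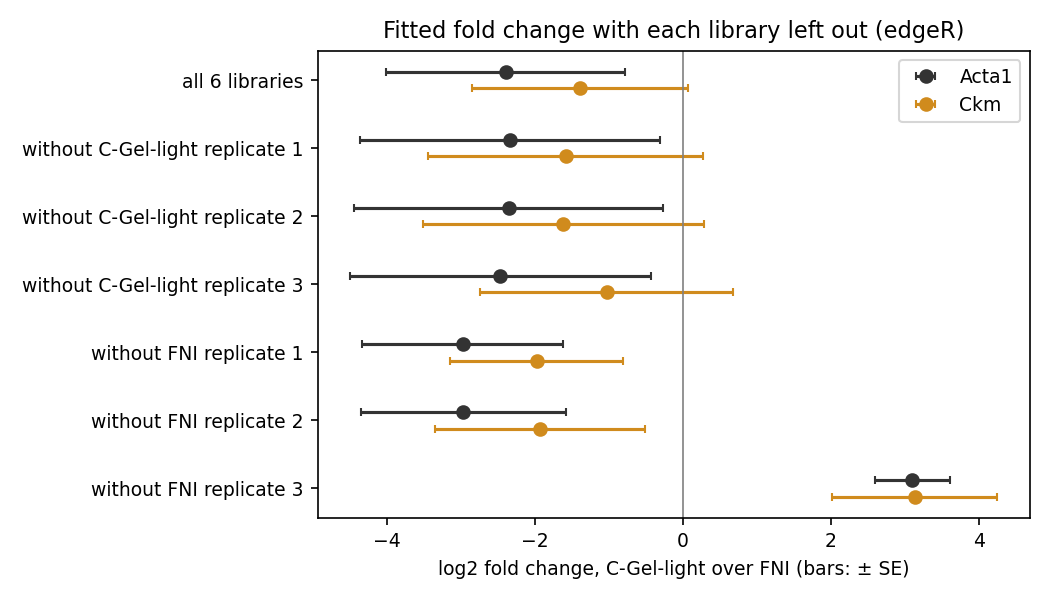
Fitted log2 fold change of Acta1 and Ckm, C-Gel-light over FNI, with SE as bars, from all 6 libraries and with each library left out. Values lie below 0 in each fit that holds FNI replicate 3 and at 3.10 and 3.13 in the fit without it.

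By the rule for likeness, ENSRNOG00000000308 (r = 0.996) and ENSRNOG00000066498 (r = 0.984) followed the mean log2 CPM of Acta1 and Ckm most closely among 10373 genes of moderate or high abundance, over 6 libraries. ENSRNOG00000000308 had 13, 13.3 and 12.8 CPM with C-Gel-light and 11.6, 11.8 and 15.5 CPM in FNI. As for Acta1 and Ckm, it was highest in FNI replicate 3 and lowest in FNI replicates 1 and 2, with a far smaller range. Its level in FNI replicate 3 was 1.16-fold that of the highest other library, and that of ENSRNOG00000066498 was 1.08-fold. Both were picked as the highest r among 10373 genes over only 6 libraries, and such a choice raises r by itself. They are given as a description over 6 libraries, which the compared genes share.

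Over all genes, the number called was 2301 with group as the only term. With the mean log2 CPM of the 4 genes as a covariate, 2013 genes were called. With Acta1 and Ckm left out of the scaling the number was 2314. Mb and Pvalb did not pass the filter and were in the scaling of neither fit.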

How the data were processed

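Poly(A)-enriched RNA of 6 libraries was sequenced. The deposited files hold whole-number counts for each Ensembl ID and FPKM values. The build mRatBN7.2 and the tools STAR 2.4.2a, RSEM 1.2.29, fastp 0.22.0, FastQC 0.11.9 and edgeR 3.28.1 are listed, without roles, per the submitters' processing notes. If RSEM made the counts, they are rounded estimates in which reads shared with similar genes, such as other actins for Acta1, were divided between them. The deposited FPKM equalled the count scaled by column total and a whole-number length (within 0.01) for 22043 of 22044 IDs with a count, so it is no separate measurement.

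Groups and replicate numbers came from sample titles. Genes were filtered with filterByExpr (minimum count 10) and tested with the edgeR 4.0.16 quasi-likelihood test in R 4.3.3. The test had group as the only term, TMM factors and robust dispersions. It was two-sided, with a Benjamini-Hochberg adjusted p under 0.05. It was also run on simulated data, in which no library was set apart as FNI replicate 3 is in the muscle genes. The SE is the log2 fold change over the square root of F. CPM uses TMM-scaled sizes, and log2 CPM a prior count of 2. Intervals are exact, at 95%, and cover counting error only, as does the limit of 3 counts. DESeq2 1.42.0, limma-voom (limma 3.58.1), other scalings and filters, log2(FPKM + 1), log2(FPKM + 0.1), the replicate number as a block and leaving out each library were alternatives. All 4 genes were named by rule, with the 2 IDs of mean log2 CPM of at least 3 most correlated with Acta1 and Ckm. The members, lists and tests were chosen with earlier results of these data known. The lists of other muscle genes and cell type markers were not tested, since no ID matched a symbol. No pair of libraries of a group agreed within counting noise (chi-square per degree of freedom 27 to 175).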

Additional observations from a re-analysis of the deposited data

How the results depend on the processing

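The log2 fold changes of Acta1 and Ckm, -2.40 and -1.39 from all 6 libraries, were not called under any alternative that kept all libraries. Their sign reversed by limma-voom (0.66 for Acta1 and 1.07 for Ckm, adjusted p = 0.81 and 0.68), which works with means of logs. It also reversed with the replicate number as a block (0.26 and 0.25, adjusted p = 0.94 for both by edgeR) and without FNI replicate 3 (3.10 and 3.13). Left-out libraries gave -2.98 to 3.10 for Acta1 and -1.98 to 3.13 for Ckm. The cause of the reversal under the block was not tested. Over the alternatives that gave a p, 17 for each gene, the adjusted p ran from 0.028 to 0.99 for Acta1 and from 0.16 to 0.96 for Ckm. The lowest value of each gene was from the edgeR fit without FNI replicate 3, which is no independent test of the groups. DESeq2 gave Acta1 a log2 fold change of -2.39 and no p. With log2(FPKM + 1) and log2(FPKM + 0.1) the differences shrank to -0.61 and -0.02 for Acta1 and -0.30 and -0.07 for Ckm. Ckm was not kept by a filter at a mean of 1 CPM. For Mb and Pvalb the differences of mean log2 CPM, -0.68 and -0.56, ran from -1.54 to 0.55 and from -1.18 to 0.68 with a library left out, and were above 0 only without FNI replicate 3 (0.55 and 0.68). Fitted without a filter they were -1.97 and -2.46 (adjusted p = 0.51 and 0.45 by edgeR). The mean summed CPM, C-Gel-light minus FNI, was -5.65, and -9.07 to 1.34 with a library left out, above 0 only without FNI replicate 3. Acta1 carried most of it, as the sum without Acta1 gave -1.25.

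Against 2301 genes called, DESeq2 gave 3618, library totals 3937, log2(FPKM + 1) 3654 and log2(FPKM + 0.1) 3741. With 1 library fewer the count was 797 to 1726. Of these, 1204 and 1153 were without C-Gel-light replicates 1 and 2, and 797 and 849 without FNI replicates 1 and 3. The block gave 1999. Same-numbered libraries showed no common deviation from their group means (r = -0.06, 0.03 and 0.09), and their own number was the best match for 3 of 6 libraries. With library totals the median log2 change over tested genes was -0.26. With at most 12 counts in 5 of 6 libraries for Ckm, Mb and Pvalb, depth limits what can be said of these genes outside FNI replicate 3.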
